A study of Mus musculus with 16 samples.

Results

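The 9 genes Shank1, Shank2, Shank3, Dlgap1, Dlgap2, Dlgap3, Dlgap4, Dlg4 and Synpo are grouped here as postsynaptic density scaffold genes. The postsynaptic density is the protein layer under the membrane of excitatory synapses. The product of Synpo is an actin-binding protein of spines, and the term scaffold gene below covers Synpo with the others. The 9 genes were taken from the table of read counts by matching its Ensembl identifiers to these symbols in the GENCODE M21 mouse annotation. All 9 were found among the 35328 genes of the table, and all 9 were among the 17830 genes that passed the filter on low counts.

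RNA-Seq was performed on the dorsal hippocampus of 16 male C57BL6/J mice, 2 to 3 months old, in 4 groups of 4. Home cage water mice (HC_water) drank water, and home cage caffeine mice (HC_Caffeine) drank caffeine at 0.3 g/L for 2 weeks. Learning water (MWM_water) and learning caffeine (MWM_Caffeine) mice had the same drinks and were in addition trained for 3 days in the Morris water maze, a spatial memory task, and killed 1 hour after the last trial. No genotype beyond the strain is given, treatment began at 8 to 9 weeks of age, and home cage mice neither swam nor were handled for training, so learning and these cannot be told apart. The question was whether regular caffeine intake changes hippocampal transcription at rest and after learning.

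In the postsynaptic density, PSD-95, the product of Dlg4, sits under the membrane and holds glutamate receptors and adhesion proteins through its PDZ domains. Its guanylate kinase-like domain binds the DLGAP proteins (also named SAPAP or GKAP), and their C-terminal end binds the PDZ domain of the SHANK proteins, which join the complex to Homer, to metabotropic receptors and to the actin regulators of the spine. Synaptopodin, the product of Synpo, is an actin-binding protein needed for the spine apparatus, a stack of endoplasmic reticulum in mature spines, and is abundant in the hippocampus.

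The genes lie on 8 chromosomes of the mouse genome (mm10). In the GENCODE annotation Shank1 spans chr7:44310253-44360572, Shank2 chr7:144001928-144424494, Shank3 chr15:89499623-89560261, Dlgap1 chr17:69969073-70821413, Dlgap2 chr8:14095865-14847680, Dlgap3 chr4:127169204-127237022, Dlgap4 chr2:156613705-156764363 and Dlg4 chr11:70016942-70047522, all on the plus strand, and Synpo is on the minus strand of a further chromosome. Exons of Shank1 share 339 bases with 1700008O03Rik and exons of Shank3 share 271 bases with Gm15609, both on the opposite strand. Dlgap1 shares 92 bases and Dlgap4 24 bases with opposite-strand genes. Whether counting used the strand is not given in the sources used here, and these shares are at most 3.22% of the exon bases of any of the 9 genes.

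Promoter sequences, 250 bases before to 50 bases after a RefSeq start (GRCm38.p6), were used for 5 of the 9 genes, with 8 entries in all. Dlgap3 and Shank3 are shown because both were high in the same home cage caffeine library, described below, and Dlgap4 because its level varied little between mice. Capitals mark the GC box, searched as GGGCGG on both strands.
Shank3, chr15:89499358-89499657, plus strand: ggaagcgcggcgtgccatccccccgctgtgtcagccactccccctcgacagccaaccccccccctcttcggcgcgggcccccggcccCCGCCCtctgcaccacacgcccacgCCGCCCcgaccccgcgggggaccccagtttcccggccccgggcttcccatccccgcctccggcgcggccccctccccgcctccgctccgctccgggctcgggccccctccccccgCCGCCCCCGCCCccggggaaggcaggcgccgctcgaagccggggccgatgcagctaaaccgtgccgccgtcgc
Dlgap3, chr4:127172630-127172929, plus strand: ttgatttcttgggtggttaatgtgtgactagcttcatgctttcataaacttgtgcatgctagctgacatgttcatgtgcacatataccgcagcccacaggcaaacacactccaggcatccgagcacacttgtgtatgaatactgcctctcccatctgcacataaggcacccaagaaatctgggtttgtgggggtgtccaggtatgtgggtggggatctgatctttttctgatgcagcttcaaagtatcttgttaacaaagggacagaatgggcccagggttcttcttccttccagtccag
Dlgap4, chr2:156720715-156721014, plus strand: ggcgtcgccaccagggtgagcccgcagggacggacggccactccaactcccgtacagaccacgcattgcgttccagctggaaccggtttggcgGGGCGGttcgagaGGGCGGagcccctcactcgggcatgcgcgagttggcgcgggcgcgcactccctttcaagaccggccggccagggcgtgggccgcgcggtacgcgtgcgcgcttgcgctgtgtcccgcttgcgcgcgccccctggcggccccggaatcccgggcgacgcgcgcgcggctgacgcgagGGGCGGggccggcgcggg
The Shank3 window is 81.0% G and C with 40 CpG dinucleotides and 4 GC boxes, and 99.3% of all promoter entries have a lower GC content. The Dlgap3 window, which lies inside the gene as GENCODE draws it, is 47.7% G and C with 2 CpG dinucleotides and no GC box. The Dlgap4 window, which also lies inside its gene and not at the gene's start, has 3 GC boxes. A GC box was found in 3 of the 8 entries of these genes and in 35.7% of the 32851 promoter entries. The E-box CACGTG was found in 1 of the 8 entries, against 7.15% of all entries. No entry of these genes held the CRE TGACGTCA, the TATA box TATAAA or the CCAAT box CCAAT on either strand, which 1.79%, 13.6% and 37.4% of all entries hold. A match is a description of the letters and not of a bound site.

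Library totals ran from 23078094 to 49949281 counts. Each of the 9 genes was read deeply, with at least 1230 counts in any library (Dlgap2) and up to 39359 (Dlg4), so the spread between mice and not counting error sets the precision. Normalized read counts are given as CPM, counts scaled to a common library total after TMM normalization. The learning labels were met by the activity-dependent genes: Fos was at 1.59 to 6.42 CPM in the 8 home cage mice and at 11.6 to 18.2 CPM in the 8 learning mice, and Arc at 64.4 to 128 CPM and 126 to 221 CPM. The 8 pan-neuronal markers were present in every library, with group means of their summed CPM of 7915, 7702, 8043 and 7964 in HC_water, HC_Caffeine, MWM_water and MWM_Caffeine mice. The 6 choroid plexus markers were not at 0 in any library and summed to 297.9 to 2307 CPM in HC_water mice against 109.8 to 490 CPM in the other mice. The library of HC_Caffeine replicate 17 stood apart, with 4.49% of its counts on mitochondrial genes against 3.23% to 3.89% in the others and GC-rich transcripts 0.15 higher on the log2 scale (median) against -0.11 to 0.04. The library of MWM_water replicate 24 stood apart as well, with oligodendrocyte markers summing to 11740 CPM against 4897 to 8805 in the others. Its summed CPM of the 9 scaffold genes was the lowest at 2620, but close to 2625 in HC_water replicate 20 and 2653 in HC_Caffeine replicate 17. The part of its oligodendrocyte content in the results after learning was not tested. In these bulk samples, fewer cells of a type and less RNA per cell cannot be told apart.

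Per kilobase of a reference transcript, the 9 genes differed in level by more than an order of magnitude, and that order was nearly the same in every mouse. Levels between genes are compared as CPM per kilobase of a reference transcript, given as the mean over 16 libraries with its SD. Dlg4 was the most abundant at 218 ± 9.52, above Dlgap1 at 124 ± 7.84 in 16 of 16 libraries. Dlgap3 at 53.2 ± 4.35 was above Dlgap4 at 41.7 ± 2.16 in 16 of 16, with no overlap of their ranges. Synpo at 39.0 ± 2.83 and Shank1 at 35.3 ± 6.12 overlapped with each other and Synpo with Dlgap4, so these neighbours were not separated by their spread. Shank3 was at 30.5 ± 4.15, below Shank1 in 16 of 16 libraries although their ranges overlap. Shank2 at 19.6 ± 1.52 and Dlgap2 at 14.1 ± 1.56 were the lowest, and Shank2 was higher in 16 of 16 libraries. The choice of transcript sets these levels between genes and has no bearing on the main comparisons between groups. An alternative fit below, corrected for GC content and transcript length, uses the same reference transcripts. Counts come from all exons of a gene, while the reference transcript has 3488 bases for Dlg4, 5276 for Dlgap1 and 4207 for Dlgap3. Their merged exons have 13251, 17890 and 4521 bases. Per kilobase of merged exons the mean of Dlgap1 lies below that of Dlgap3, so the order holds for this measure only.

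**Figure D1:**
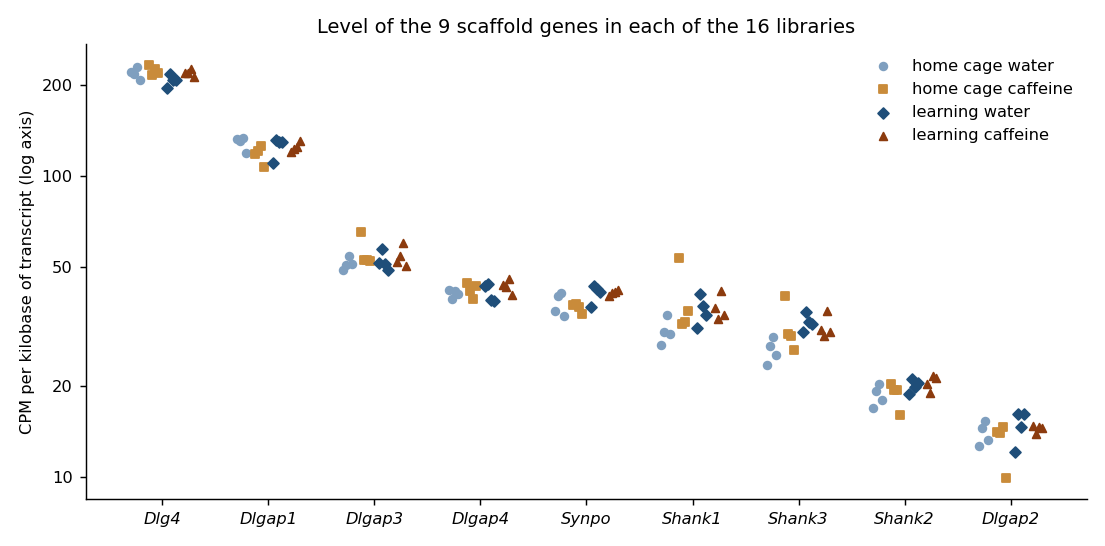
Level of the 9 genes in CPM per kilobase of transcript (log axis), with 1 point per mouse and symbols for the 4 groups. Dlg4 (mean 218) and Dlgap1 (124) lie above the other genes in every library, and 1 home cage caffeine mouse lies above all others for Shank1, Shank3 and Dlgap3.

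Within the SHANK family, Shank1 made up 40.4% ± 0.698 (SD, n = 4) of the summed level per kilobase in HC_water mice, Shank3 34.8% ± 0.365 and Shank2 24.8% ± 0.403. The share of Shank3 was 36.4% to 37.7% in MWM_water mice and 34.6% to 35.4% in HC_water mice, without overlap, 35.2% to 36.1% in MWM_Caffeine mice, and 33.9% to 36.6% in HC_Caffeine mice, overlapping with both water groups. The share of Shank2 was 21.8% to 23.6% in MWM_water mice against 24.3% to 25.2% in HC_water mice, and spread from 17.8% to 24% in HC_Caffeine mice. Within the DLGAP family, Dlgap1 held 54.9% ± 1.33 in HC_water mice, Dlgap3 21.8% ± 0.91, Dlgap4 17.4% ± 0.69 and Dlgap2 5.94% ± 0.394. These shares are descriptions without a test, and they rest on the same choice of reference transcript as the levels. The shares of a family add up to the whole, so those of Shank2 and Shank3 are not independent. How often such shares separate between groups in other gene families was not computed.

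Variation between mice was uneven among the genes. Dlg4 and Dlgap4 were the steadiest, with a coefficient of variation of 4.37% and 5.19% over the 16 mice and a highest library 1.19 and 1.18 times the lowest. Shank1 varied most, at 17.3% with a highest library 1.96 times the lowest, followed by Shank3 at 13.6% and Dlgap2 at 11%. A single library, HC_Caffeine replicate 2, gave the highest Shank1, Shank3, Dlgap3 and Dlg4 values of all 16.

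Learning was compared with the home cage first in mice that drank water. No scaffold gene was called at an adjusted p under 0.1 (edgeR's quasi-likelihood test with Benjamini-Hochberg adjustment over all 17830 genes), where 173 genes or 0.97% were called. Before adjustment 1 of the 9 had p below 0.05, against 11.8% of all genes tested, and DESeq2 called none of the 9. Shank3, the SHANK family member best known from autism-related neurodevelopmental syndromes, came nearest. It was at 168, 194, 208 and 181 CPM in HC_water mice and at 216, 252, 233 and 229 CPM in MWM_water mice. The groups did not overlap, and Shank3 was the only one of the 9 genes of which this was true, against 6.99% of all genes tested. Its log2 fold change was 0.31 ± 0.10 (SE), 24.1% higher after learning, with an adjusted p of 0.224.

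HC_Caffeine replicate 2 is in neither of these groups and enters the fit through the normalization, the count filter and the estimate of the spread, which all 16 libraries share. Without it the fold change of Shank3 was 0.33 with an adjusted p of 0.0805, and Shank3 was then the 1 scaffold gene called, 1 of 9 where 1.11% of all genes tested were called. The other fits that left out 1 library gave 0.27 to 0.38, none of them past the threshold. Among these, the fit without MWM_water replicate 24 gave 0.35 for Shank3 (adjusted p = 0.194), 0.17 for Synpo, 0.016 for Dlgap1 and -0.05 for Dlg4.

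The other SHANK genes were higher on average after learning under water, but not beyond the spread between mice. Shank1, a brain-specific member of spines, was at 269, 298, 340 and 292 CPM in HC_water mice and at 307, 400, 365 and 340 CPM in MWM_water mice. The groups overlapped, and the log2 fold change was 0.24 ± 0.13 (adjusted p = 0.51). Shank2 was at 152, 174, 183 and 162 CPM against 170, 190, 178 and 185 CPM, also with overlap, with a fold change of 0.11 ± 0.07 (adjusted p = 0.584).

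The DLGAP genes, which link PSD-95 to the SHANK proteins, were nearly level under water. Their log2 fold changes were -0.04 ± 0.06 for Dlgap1, 0.08 ± 0.11 for Dlgap2, 0.03 ± 0.08 for Dlgap3 and 0.01 ± 0.06 for Dlgap4, with adjusted p values of 0.79 to 0.948. The 95% confidence interval of Dlgap4 reached from -0.11 to 0.13 and that of Dlgap2 from -0.14 to 0.31, so a change the size of that of Shank3 lies outside the first and just at the edge of the second. Dlg4 was at 775, 764, 801 and 727 CPM in HC_water mice and at 686, 762, 725 and 727 CPM in MWM_water mice, with a fold change of -0.08 ± 0.05 (adjusted p = 0.527). The lowest Dlg4 value of all 16 was that of MWM_water replicate 24, yet the groups overlapped.

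Synpo was at 180, 202, 206 and 173 CPM in HC_water mice and at 186, 218, 212 and 209 CPM in MWM_water mice, a log2 fold change of 0.12 ± 0.06 (adjusted p = 0.468). The ranges of the 2 groups overlapped, with 1 learning mouse among the home cage values. The median fold change of the 9 genes was 0.08, beside -0.01 for all genes tested.

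Learning under caffeine gave calls for 942 genes (5.28%) and for none of the scaffold genes. Before adjustment 1 of the 9 had p below 0.05, against 18.8% of all genes tested. It was Synpo. Its level was 189, 189, 186 and 177 CPM in HC_Caffeine mice and at 202, 207, 209 and 212 CPM in MWM_Caffeine mice, so the groups did not overlap. Of the 9 genes only Synpo had no overlap here, against 10.9% of all genes tested. The log2 fold change was 0.16 ± 0.06, 12.0% higher after learning, with an adjusted p of 0.153. DESeq2's Wald test on the same counts gave 0.17 with an adjusted p of 0.0916 and called Synpo. That was 1 of 9 where DESeq2 called 1561 genes, 4.42% of the 35328 genes of the table. These include genes below the count filter, so this share is not like those over the 17830 genes tested by edgeR. On counts simulated for this comparison with edgeR's own estimates of the spread, DESeq2 made 38 false calls where edgeR made 7. At a log2 change of 0.25, DESeq2 found 23 of 50 changed genes there and edgeR 10 of 50. The simulation does not decide whether the call of Synpo is a false one.

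Shank3 did not separate under caffeine. It was at 286, 212, 209 and 189 CPM in HC_Caffeine mice and at 219, 209, 255 and 217 CPM in MWM_Caffeine mice, a log2 fold change of 0.01 ± 0.10 (adjusted p = 0.983). The home cage group holds the highest and one of the lowest values of the 16 mice. Without HC_Caffeine replicate 2 the fold change was 0.16 and still not called. For Shank1 it was -0.08 ± 0.13 with all mice and 0.14 without that library. The other genes had fold changes between -0.04 (Dlgap3) and 0.14 (Dlgap2), none called, and the median of the 9 was 0.04 against -0.01 for all genes.

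Whether learning acted differently under water and under caffeine was tested directly, as the difference between both learning responses. It was called for no gene of the table (0%) by edgeR and for 6 by DESeq2, none of them a scaffold gene; 648 genes (3.63%) and none of the 9 had p below 0.05 before adjustment. Shank3 had a difference of -0.31 on the log2 scale with a 95% confidence interval from -0.61 to 0.003 (adjusted p = 1), and Shank1 one of -0.31 (-0.71 to 0.08). Without HC_Caffeine replicate 2 these were -0.16 and -0.11. For the remaining genes the difference was between -0.07 (Dlgap3) and 0.12 (Dlgap1). The learning responses of Shank3 under water and under caffeine are therefore not shown to differ.

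**Figure D2:**
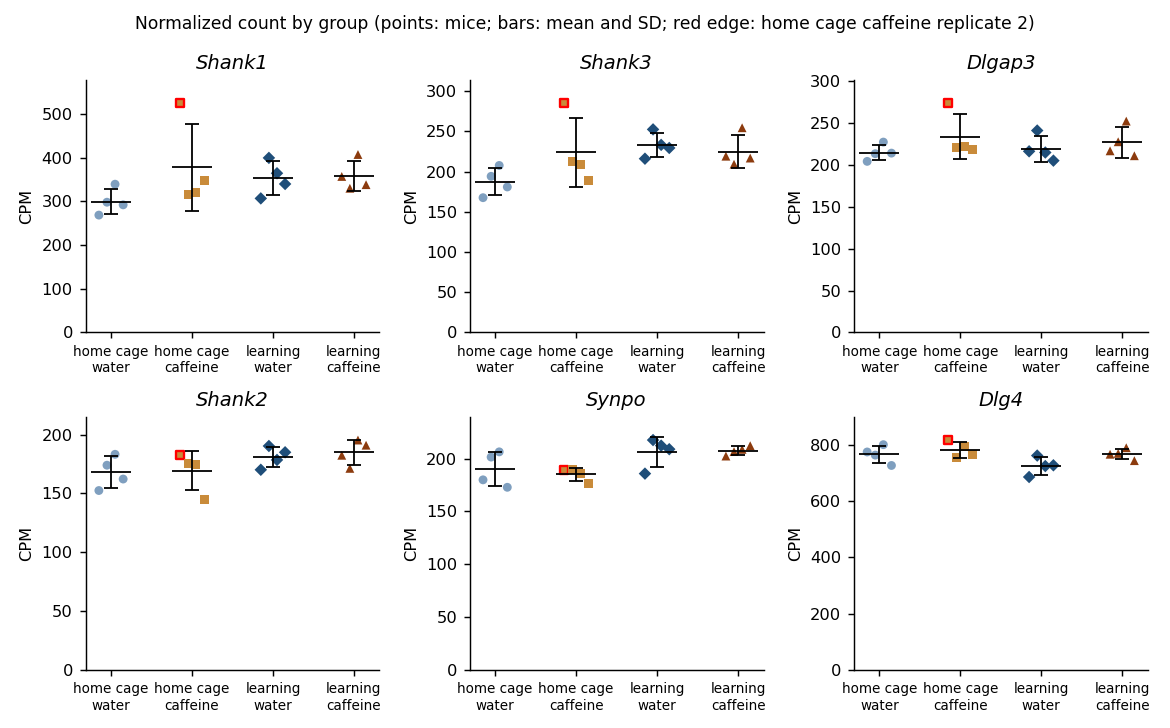
Normalized read count (CPM, from 0) of 6 of the genes in the 4 groups, with 1 point per mouse and the mean and SD of each group. The point with the red edge, home cage caffeine replicate 2, stands at 526 CPM for Shank1, 286 for Shank3 and 275 for Dlgap3, and the learning caffeine mice lie above the home cage caffeine mice for Synpo.

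The average of both learning responses uses all 16 mice and is the most precise measure of learning here, with a median SE of 0.05 for the 9 genes and 0.07 for all genes. It shares its libraries with both comparisons above and adds no independent sample. Synpo rose by 0.14 ± 0.04 on the log2 scale, or 10.2%, with an adjusted p of 0.052, and was the only scaffold gene called, 1 of 9 where 14.5% of all genes tested were called. Synpo stayed called in each of 16 fits that left out 1 mouse, with fold changes of 0.12 to 0.18 and adjusted p values of 0.0175 to 0.0972. The smallest p was that without MWM_water replicate 24, where the fold change was 0.17. Synpo was no longer called when each library was corrected for its trend with GC content and transcript length (0.13, adjusted p = 0.1). In that fit 11.7% of all genes were called. Nor was it called when HC_Caffeine replicates 2 and 17 were both left out (0.14, adjusted p = 0.141). There Shank3 was called in its place (0.21, adjusted p = 0.0583), and 7.16% of all genes were called.

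Shank2 and Shank3 were higher on average as well, without passing the threshold. Shank2 had a fold change of 0.12 ± 0.05 (adjusted p = 0.156) and Shank3 one of 0.16 ± 0.07 (adjusted p = 0.183). Leaving out HC_Caffeine replicate 2 brought 4 of the 9 genes past the threshold: Shank3 at 0.24 (adjusted p = 0.0176), Shank1 at 0.20 (0.0764), Shank2 at 0.15 (0.0867) and Synpo at 0.16 (0.0507). In that fit 14.6% of all genes tested were called. HC_Caffeine replicate 2 is a home cage library with the highest Shank1 and Shank3 values of all mice. The learning fold changes of Shank1 and Shank3 therefore rise without it, whatever the effect of learning. Leaving out HC_water replicate 11 gave 2, Shank2 (0.16, adjusted p = 0.087) and Synpo, beside 12.6% of all genes. Dlg4 at -0.05 ± 0.03, Dlgap1 at 0.02, Dlgap2 at 0.11, Dlgap3 at -0.01 and Dlgap4 at 0.02 were not called in any of these. All 6 choroid plexus markers were called lower in the average learning effect, with a median of -1.21. Under water 3 of 6 were called lower, and under caffeine none (median -0.79). All 6 were also lower with caffeine on average (median -1.09), none of them called. Their mean summed CPM was 1158 in HC_water mice, against 288.3 in HC_Caffeine, 295.7 in MWM_water and 155.4 in MWM_Caffeine mice. In the average learning effect none of the 8 pan-neuronal markers was called (median 0.00). Called lower were also 3 of 6 microglia markers, 2 of 6 striatum markers and 1 of 6 each of the CA1 and pyramidal, astrocyte, endothelial and thalamus markers, and none of the dentate granule or oligodendrocyte markers was called. The part of tissue composition in the results of Synpo and the SHANK genes was not tested.

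**Figure D3:**
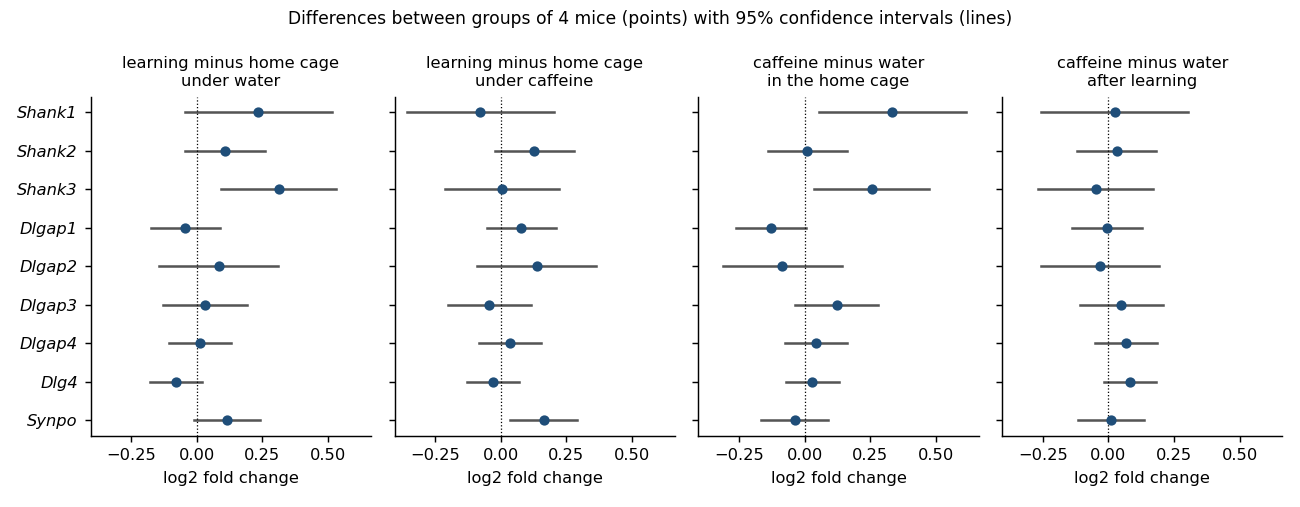
Log2 fold changes of the 9 genes (points) with 95% confidence intervals (lines) in the 4 comparisons of 2 groups of 4 mice. The interval lies above 0 for Shank3 after learning under water (0.31), Synpo after learning under caffeine (0.16), and Shank1 (0.34) and Shank3 (0.26) under caffeine in the home cage; none of these passed the adjusted threshold.

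Caffeine was compared with water in the home cage next. No gene of the table was called (0%) by edgeR and 19 by DESeq2, none of them a scaffold gene. Before adjustment 636 genes (3.57%) had p below 0.05, and 2 of the 9 were among them: Shank1, with a log2 fold change of 0.34 ± 0.13 (adjusted p = 0.997), and Shank3, with 0.26 ± 0.10 (adjusted p = 0.997). Shank1 was at 526, 315, 321 and 349 CPM in HC_Caffeine mice, against 269, 298, 340 and 292 CPM in HC_water mice. One mouse stood far above the rest, and the other 3 overlapped with the water mice. The 95% confidence interval was 0.05 to 0.62 for Shank1 and 0.04 to 0.47 for Shank3.

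Without that mouse, HC_Caffeine replicate 2, the fold change of Shank1 was 0.13 (adjusted p = 0.991) and that of Shank3 0.12 (adjusted p = 0.991). Dlgap3 had the same pattern, at 275, 221, 222 and 219 CPM in HC_Caffeine mice against 204, 214, 227 and 214 CPM in HC_water mice, with 0.12 ± 0.08 over all mice and 0.04 without replicate 2. The deviation of that library from the mean of the 3 others of its group was 0.68 on the log2 scale for Shank1, higher than for 99.92% of 10608 genes, 0.49 for Shank3 (99.77%) and 0.32 for Dlgap3 (98.71%). For Dlgap1 it was 0.01, for Synpo 0.04 and for Dlg4 0.08. The summed CPM of the pan-neuronal markers was also highest of all 16 in this library, at 8357, its summed CA1 and pyramidal markers were highest at 995.9, and its mitochondrial share of 3.78% was within the range of the others. Its immediate early genes summed to 355.8 CPM, against 222.4 to 289.4 in the other home cage mice, and its dentate granule markers to 324.5 CPM, rank 14 of 16. The part of these in the values of Shank1, Shank3 and Dlgap3 was not tested.

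**Figure D4:**
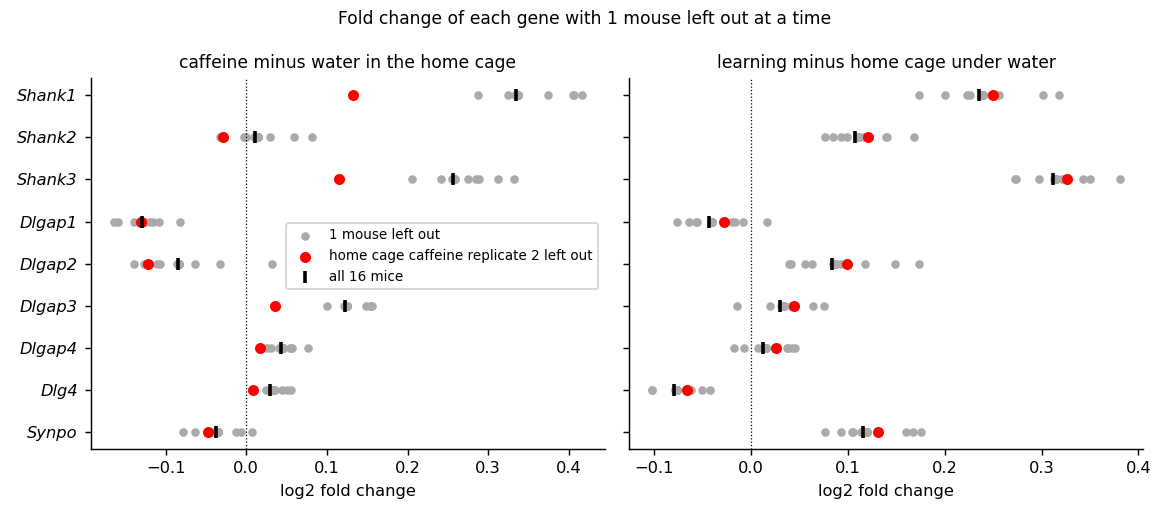
Log2 fold change of each gene with all 16 mice (black bar), with each mouse left out in turn (grey) and without home cage caffeine replicate 2 (red). In the home cage caffeine comparison the red point of Shank1 lies at 0.13 against 0.34 with all mice and that of Shank3 at 0.12 against 0.26, while after learning under water Shank3 stays between 0.27 and 0.38.

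None of the remaining scaffold genes was called under caffeine in the home cage. Dlgap1 was at 624, 641, 662 and 564 CPM in HC_Caffeine mice against 699, 691, 704 and 628 CPM in HC_water mice, a log2 fold change of -0.13 ± 0.06 (adjusted p = 0.997). The groups overlapped, and the lowest value is that of replicate 17, the library with the highest mitochondrial share. Replicate 17 also had the lowest Shank2 (145 CPM) and Dlgap2 (38.1 CPM) of all mice. Without replicate 17 the fold change of Dlgap1 was -0.08. The fold changes of Dlgap2, Dlgap4, Dlg4, Shank2 and Synpo were -0.09 ± 0.11, 0.04 ± 0.06, 0.03 ± 0.05, 0.01 ± 0.07 and -0.04 ± 0.06.

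After learning, caffeine and water mice were nearly level for all 9 genes. No gene of the table was called (0%) by edgeR and 6 by DESeq2, none of them a scaffold gene. Before adjustment 700 genes (3.93%) had p below 0.05, none of the 9 among them. Dlg4 had the largest fold change, 0.08 ± 0.05 (adjusted p = 0.999), with 767, 769, 790 and 744 CPM in MWM_Caffeine mice against 686, 762, 725 and 727 CPM in MWM_water mice. The intervals bound what could be missed: for Synpo the 95% confidence interval was -0.12 to 0.14 and for Shank3 -0.27 to 0.17. The average of both caffeine comparisons called no gene either (0%; 16 by DESeq2, 725 or 4.07% with p below 0.05 before adjustment, in neither case a scaffold gene), with a median of 0.06 for the 9 genes and 0.00 for all, and was 0.18 ± 0.09 for Shank1 and 0.10 ± 0.07 for Shank3. Without HC_Caffeine replicate 2 these were 0.08 and 0.03.

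Genes around the scaffold were counted in 7 further lists, by the average learning effect at an adjusted p under 0.1, at which 14.5% of all genes tested were called. The lists hold 4 to 12 genes, so their counts are descriptions and call nothing particular to a list. Of the other membrane-associated guanylate kinases, 3 of 7 were called and all 3 rose: Dlg2, which encodes PSD-93, by 0.13 ± 0.05, Mpp2 by 0.11 ± 0.04 and Magi3 by 0.18 ± 0.06. The median of that list was 0.11. These calls were less firm: of 24 alternative fits, 14 called Dlg2, 16 Mpp2 and 21 Magi3, and with the GC and length correction Dlg2 was at 0.06 and Magi3 at 0.11, neither called. Of 12 adaptors, 1 was called, Homer1, which binds SHANK proteins and whose short activity-induced form uncouples them from receptors. Homer1 was at 120 to 156 CPM in HC_water, 102 to 159 in HC_Caffeine, 182 to 214 in MWM_water and 206 to 270 in MWM_Caffeine mice. The groups did not overlap under either treatment, and Homer1 rose by 0.59 ± 0.12 under water (adjusted p = 0.0429) and by 0.77 ± 0.12 under caffeine (adjusted p = 0.00369). Under water the call was lost without HC_water replicate 11 or 20 or MWM_water replicate 33 or 36, with fold changes of 0.56 to 0.60. Gene counts do not tell its short and long forms apart.

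None of 12 signaling proteins of the postsynaptic density was called, with the smallest p for Psd3, an exchange factor for Arf GTPases, at 0.16 ± 0.06 (adjusted p = 0.109). Among 12 regulators of spine actin, Actn1 rose by 0.17 ± 0.05 (adjusted p = 0.0325) and Actn2 by 0.24 ± 0.07 (adjusted p = 0.0378), both alpha-actinins that crosslink actin filaments. Of 24 alternative fits, 23 called each of them. None of 10 excitatory postsynaptic adhesion genes was called (smallest p for Lrrtm1, 0.12 ± 0.05, adjusted p = 0.119), and none of 4 inhibitory postsynaptic scaffold genes. On the presynaptic side, 2 of 10 active zone scaffold genes rose, Bsn by 0.30 ± 0.08 (adjusted p = 0.0253) and Erc1 by 0.18 ± 0.06 (adjusted p = 0.0806), and all 10 had fold changes above 0 with a median of 0.16. Bsn was called in 24 of 24 alternative fits and Erc1 in 14 of 24. Apart from Homer1, no gene of these lists was called in a comparison of 2 groups, and no gene of them was called lower.

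**Figure D5:**
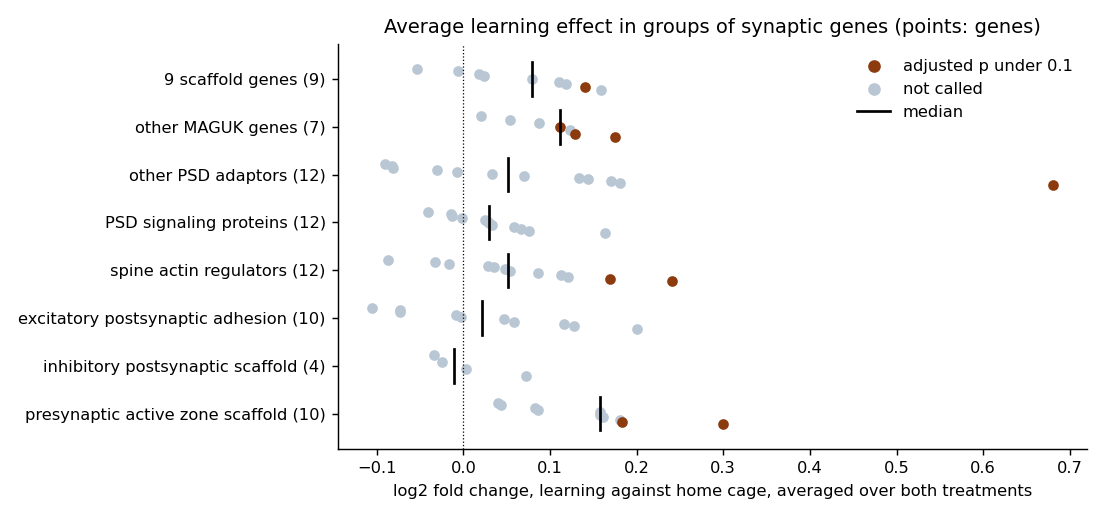
Average learning effect (log2 fold change, x axis) of each gene in the 9 scaffold genes and 7 further lists (list size in brackets), with called genes in brown and the median of each list as a black bar. Homer1 at 0.68 is far to the right of the other genes, Synpo (0.14) is the called scaffold gene, and the active zone list has the highest median (0.16).

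For each scaffold gene, the gene outside the 9 with the most similar profile was found among 10593 candidates, by Pearson's r of log2 CPM over the 16 libraries. These are maxima over many genes and share library and base composition effects, so they are descriptions without a p. Shank1 went with Agap2 (r = 0.929, Spearman's rho = 0.897), which has its own highest value in HC_Caffeine replicate 2, and r was 0.804 without the 2 libraries farthest from the median. Shank3 went with Prrc2a (r = 0.891, rho = 0.753, and 0.853 without 2 libraries). Shank2 was most like Erc1 (r = 0.936, rho = 0.868, and 0.818), the active zone gene named above.

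Among the linkers, Dlgap1 was most like Pgr (r = 0.953, rho = 0.918), Dlgap2 like Sgip1 (r = 0.959, rho = 0.788) and Dlgap4 like Ptprn (r = 0.876, rho = 0.865). Without the 2 farthest libraries these were 0.946, 0.838 and 0.837. For Dlgap3 and Rasl10b the relation rested on few libraries: r fell from 0.813 to 0.532 when HC_Caffeine replicate 2 and MWM_Caffeine replicate 30 were left out. Dlg4 was most like Celf5 (r = 0.839, rho = 0.832) and Synpo like Fbxo41 (r = 0.952, rho = 0.929), with 0.819 and 0.948 without 2 libraries. No 2 of the 9 genes shared the same nearest gene.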

How the data were processed

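Stranded mRNA libraries of 16 mice were sequenced as single-end reads of 50 bases, mapped to mm10 with STAR (2.5.3a) and Bowtie 2 (2.2.8), and uniquely aligned reads were counted on Ensembl release 90 genes with HTSeq-count (0.6.1p1, union mode), as the study's methods state. The authors deposited raw read counts per gene, without normalization, pooling or molecular identifiers. Of 35328 genes, 35247 matched GENCODE M21.

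Counts were analysed in R 4.3.3 with edgeR 4.0.16 (TMM, filterByExpr with the 4 groups, a mean per group over 16 libraries, quasi-likelihood test, Benjamini-Hochberg adjustment over 17830 genes). Genes are called at an adjusted p under 0.1, the study's threshold. The 4 mice of a group are the replicates; the labels do not say which shared a cage. CPM values are relative to the scaled library total, and log2 CPM for correlations used a prior count of 2. Totals were 23078094 to 49949281 counts, and the median standard error of the fit was 0.10 per gene between 2 groups. Replicates differed beyond sampling noise in every pair.

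The scaffold genes and lists were chosen with earlier results of these data known. Named are all 9 genes, genes of the other lists called in any comparison (otherwise the one of smallest p in the average learning effect), the nearest profile among genes averaging log2 CPM 3 or more, and Fos and Arc; 1 gene that this rule names is not reported here. Alternatives were DESeq2 1.42.0, its size factors, other count filters, an adjusted p under 0.05, robust empirical Bayes, 8 libraries per comparison, thinning, a GC and length correction (99.84% of tested genes had both), and each library left out; leaving out HC_Caffeine replicates 2 and 17 together was added after seeing the data. The edgeR fit was tested on counts simulated with its own estimates of the spread, for learning against home cage under caffeine (17830 genes). It found 141 of 200 changed genes and made 7 false calls. At a log2 change of 0.25 it found 10 of 50, where DESeq2 found 23 of 50. In all, DESeq2 found 157 of 200, with 38 false calls.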

Additional observations from a re-analysis of the deposited data

Results flagged for a closer look

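In each group of 4 mice, the gap of the highest or lowest library to its nearest neighbour was set against the range of the group. Of 36 such groups (9 genes in 4 groups), 4 had a library far from the other 3. For independent values chance gives about 1 in 20. The 36 groups share the same 16 libraries and are not independent. The share over all genes was not computed, so the count is a description and no trait of these genes. Shank1 was at 526.3 CPM in HC_Caffeine replicate 2, a gap of 0.843 of the group's range. Dlgap3 was at 274.6 CPM in the same library, with 0.945 of the range. Dlgap2 was at 38.06 CPM in HC_Caffeine replicate 17, below the others by 0.877 of the range. Dlgap1 was at 583.3 CPM in MWM_water replicate 24, below the others by 0.894 of the range. That library also had the highest summed oligodendrocyte markers of all 16, 11740 CPM. Replicate 2 of HC_Caffeine gave 2 of the 4.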

How the results depend on the processing

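Counts of scaffold genes called changed as follows. DESeq2's Wald test called 1 under learning with caffeine (Synpo) against 0. It called 4.42% of the 35328 genes of the table, which include those below the count filter. In the average learning effect 0 were called at an adjusted p under 0.05, against 1, beside 7.76% of all genes. With the GC and length correction 0 were called there as well, beside 11.7% of all genes. Leaving out 1 library at a time gave 0 to 1 under learning with water, with 1 only without HC_Caffeine replicate 2 (1.11% of all genes). In the average learning effect it gave 1 to 4. There it was 4 without HC_Caffeine replicate 2 (14.6% of all genes) and 2 without HC_water replicate 11 (12.6%). Without HC_Caffeine replicates 2 and 17 together, an alternative chosen after seeing the data, 1 was called under learning with water (Shank3). In that fit 1.66% of all genes were called. In every other comparison 0 were called under each alternative run.

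Over all genes, learning under water gave 173 calls, 427 with DESeq2, 85 on the 8 libraries compared alone, 290 with a minimum of 1 count in total, 70 at an adjusted p under 0.05, 305 without HC_Caffeine replicates 2 and 17, and 37 to 312 with 1 library left out. Learning under caffeine gave 942, against 1561 with DESeq2, 617 on 8 libraries, 449 at an adjusted p under 0.05, 155 without both libraries and 382 to 1231 with 1 left out. The average learning effect gave 2590, 1384 at an adjusted p under 0.05, 2080 with the GC and length correction and 1313 without both. The comparisons of caffeine with water gave 0, and at most 36 under any alternative. The cause of these shifts was not tested.

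Reversed signs were seen only for uncalled fold changes. With DESeq2, Dlgap3 was at 0.0014 in the average learning effect. With a minimum of 1 count in total it was at 0.0047, and Dlgap1 after learning (caffeine against water) at 0.00023. With the GC and length correction, Dlgap4 was at -0.0021 under learning with water, Shank3 at -0.021 under learning with caffeine, Dlg4 at -0.00086 under caffeine in the home cage, Dlgap1 at 0.019 and Synpo at -0.0089 under caffeine after learning, and Dlgap1 at -0.029 and Dlgap3 at 0.0018 in the average learning effect. After thinning to the smallest library, Shank3 was at -0.0026 under learning with caffeine and Dlgap1 at 0.003 under caffeine after learning. Without HC_Caffeine replicates 2 and 17, Shank1 was at 0.179 and Dlgap3 at 0.045 under learning with caffeine, Dlgap2 at 0.036 and Dlgap4 at -0.019 under caffeine in the home cage, Shank2 at -0.022, Dlgap2 at -0.067 and Dlgap3 at 0.01 in the difference between the learning responses, Dlgap1 at -0.0082 and Dlgap3 at 0.04 in the average learning effect, and Dlgap2 at 0.0027 in the average caffeine effect.

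With 1 library left out at a time, the fold changes that crossed 0 ranged as follows. Under learning with water they were -0.077 to 0.016 for Dlgap1, -0.015 to 0.075 for Dlgap3 and -0.018 to 0.045 for Dlgap4. Under learning with caffeine they were -0.152 to 0.143 for Shank1, -0.064 to 0.163 for Shank3, -0.095 to 0.06 for Dlgap3 and -0.043 to 0.01 for Dlg4, each highest without HC_Caffeine replicate 2. Under caffeine in the home cage they were -0.032 to 0.081 for Shank2, -0.139 to 0.032 for Dlgap2 and -0.079 to 0.0077 for Synpo. Under caffeine after learning they were -0.043 to 0.091 for Shank1, -0.06 to 0.02 for Dlgap1, -0.115 to 0.019 for Dlgap2, -0.0036 to 0.101 for Dlgap3 and -0.035 to 0.04 for Synpo. In the difference between the learning responses they were -0.046 to 0.067 for Shank2, -0.062 to 0.109 for Dlgap2, -0.129 to 0.016 for Dlgap3 and -0.0063 to 0.063 for Dlgap4. In the average learning effect they were -0.00063 to 0.05 for Dlgap1 and -0.031 to 0.052 for Dlgap3, and in the average caffeine effect -0.099 to 0.0017 for Dlgap2 and -0.035 to 0.01 for Synpo.

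No paired analysis was possible because the groups share no replicate numbers.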
